A study of Mus musculus with 41 samples.

Results

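Epithelial mammary tumors lacking p53 were compared between mice that ate a high-fat diet (HFD) and mice that ate a low-fat diet (LFD) during puberty. The tumors were chosen by their labels alone. A tumor entered if its morphology was given as "p53 variable", which is read here as the epithelial class, and its pubertal diet followed from its diet label. These rules gave 29 of the 41 tumors of the series, and the 12 spindle cell tumors served for comparison only. The pubertal HFD group held 15 tumors, of which 8 came from mice kept on HFD throughout (HFD) and 7 from mice moved to LFD at the start of adulthood (HFD-LFD). The pubertal LFD group held 14 tumors, 8 from mice kept on LFD (LFD) and 6 from mice moved to HFD as adults (LFD-HFD). Labelled tumor onset was balanced, with 7 early and 8 late tumors in the pubertal HFD group against 7 early and 7 late tumors in the pubertal LFD group.

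All of the tumors shared the same genetic background. Pieces of mammary duct from Trp53-null BALB/c donor females had been transplanted into cleared inguinal fat pads of wild-type BALB/c females soon after weaning, and the diets began after surgery. The epithelium was therefore Trp53-null, whereas the stroma, vessels and immune cells of each tumor came from a wild-type host. Whole tumor RNA was measured, so the profiles mix both compartments. The donors were several mice and were not tied to single tumors in the labels. The titles of 2 pairs of tumors, 11L with 11R and 117L with 117R, share a number, so the members of a pair may come from 1 host.

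Puberty is the time at which ovarian hormones, growth hormone and insulin-like growth factor drive the mammary ducts through the fat pad, by way of terminal end buds made of rapidly dividing epithelial cells. The fat pad that surrounds these ducts holds adipocytes, fibroblasts, vessels and macrophages, and macrophages are known to gather around end buds and to help ducts elongate. Dietary fat can reach this tissue as fatty acids, which cells take up, store, burn in mitochondria or use to build membranes, and through hormones, adipose factors and inflammation. The comparison addresses whether the diet eaten in this window is still visible in the RNA of tumors that arose later, whatever the adult diet was.

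Each tumor was hybridised to a 2-colour Agilent whole mouse genome array against a Universal Mouse Reference RNA. Values below are log2 ratios of the 2 channels, so a difference of 1 between groups is a 2-fold difference. The labels give Cy5 as the tumor dye, while the study's methods give Cy5 as the dye of the reference, and every sign below follows the labels. The deposited arrays allowed 2 checks of that choice. The 5 probes of Y-linked genes, which female tumors lack and a mixed reference may hold, had a median Cy5 over Cy3 log2 ratio under 0 in 26 of 29 arrays. Signal varied more between arrays in the Cy5 channel, with a median SD of 0.694 on the log2 scale, than in the Cy3 channel, at 0.451. All 29 arrays ran the same way, the lowest correlation between any pair being 0.531, which says nothing about which dye is the tumor. If the methods' assignment were right, every difference below would turn its sign.

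The share of probes whose tumor signal stood well above background ranged from 52.4% to 94.9% over the 29 arrays, with a median of 73.8%. Outlier spots made up between 0.477% and 22% of an array, the highest share belonging to the HFD tumor 60L. A second scan session held 2 of the 29 arrays. The 29 arrays lay on 8 slides, and 7 of the slides held a single diet regimen. Only 1 slide held both pubertal groups, with 2 HFD and 2 LFD-HFD tumors. Slide and regimen are thus closely tied. On the slide with both groups the 2 HFD tumors were late and the 2 LFD-HFD tumors early, so pubertal diet and onset cannot be told apart there. Differences given for that slide come from tumors that also served to choose the genes. The main counts of called genes and the named calls are given with slide as a random block too. The p-values of genes that did not pass are given without the block, and its effect on each of them is not shown.

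The epithelial label was set beside luminal markers and beside Trp53 itself. Krt18, a keratin of luminal epithelium, lay above the reference in all of the 28 tumors with a value, between 0.57 and 3.80. In spindle cell tumors its mean was 2.01 after pubertal HFD and 2.10 after pubertal LFD. A Krt18 value above the reference therefore does not separate the histologies and cannot check the label. The mean log2 ratio of 12 luminal markers ran from 0.10 to 3.49 in pubertal HFD tumors and from 1.09 to 2.66 in pubertal LFD tumors, with the same median of 1.81. The Trp53 probe was well above background in all 29 tumors. Its log2 ratio ranged from −1.27 to 3.74 (median 0.78) after pubertal HFD and from −2.25 to 0.997 (median 0.48) after pubertal LFD. Whether this probe lies in the deleted part of the gene is not given in the sources used here, so it does not check the genotype, and the wild-type host cells carry the gene.

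Across 21405 genes, none passed an adjusted p of 0.10 between pubertal HFD and pubertal LFD tumors in either direction (limma, 0 called, 0%). The lowest adjusted p was 0.1475 by limma. At an unadjusted p under 0.05, 2109 genes (9.85%) were listed, of which 783 (3.66%) were higher and 1326 (6.19%) were lower after pubertal HFD. The median difference over all genes was −0.04, and 44.2% of the genes were above 0. With slide as a random block limma again called 0 genes, and 1480 genes (6.91%) had an unadjusted p under 0.05.

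The zero count depended on how the arrays were treated. With normexp background correction and loess in place of the scanner's processed signals, limma called 204 genes higher and 80 lower. Without the HFD tumors 42L4B and 60L, which shared a slide of 2 arrays, it called 45 higher and 36 lower. With scan session as a fixed block it called 42 higher and 34 lower. Left out 1 at a time, 3 tumors also brought larger counts, with 36 higher and 14 lower without the LFD-HFD tumor 101L4A, 30 and 9 without the HFD-LFD tumor 109L, and 19 and 10 without the LFD tumor 11L. The genes below are those of smallest p in each direction. They are described by their values, and none of them passed the test in the comparison of the 29 tumors.

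The 10 genes of smallest p on the higher side come first. Gpr37l1 encodes an orphan G protein-coupled receptor known from glia. Its log2 ratio ran from −0.85 to 0.85 (median −0.27) in pubertal HFD tumors and from −1.98 to −0.25 (median −1.10) in pubertal LFD tumors. The groups overlapped, although all 15 pubertal HFD tumors lay above the median of the pubertal LFD tumors. The difference was 0.85 ± 0.18 (SE, as for every difference below), or 1.81-fold, with p = 3.55e-05 (n = 15 and 14) and an adjusted p of 0.1475 by limma. On the slide that held both groups the difference was larger, at 1.55.

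Lpar1 is a receptor for lysophosphatidic acid, a lipid signal that acts on growth and motility. Pubertal HFD tumors ranged from −2.17 to 0.20 (median −1.43), and pubertal LFD tumors from −4.40 to −1.54 (median −2.32). No pubertal LFD tumor reached the pubertal HFD median, and the ranges still overlapped. The difference of 1.08 ± 0.24 had p = 0.000102 (n = 15 and 14) by limma. It was 0.55 under normexp and loess, and 0.79 on the shared slide. The lowest value, −4.40, belonged to the LFD tumor 31R.

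Lhfpl3 encodes a small protein with several membrane-spanning segments. Its values ran from −2.24 to 0.85 around a median of −1.06 after pubertal HFD, and from −3.54 to −1.34 around a median of −2.11 after pubertal LFD. Only the upper part of the pubertal LFD range overlapped the pubertal HFD tumors. The difference was 1.21 ± 0.26 with p = 7.09e-05 (n = 15 and 14) by limma, and 0.61 under normexp and loess.

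Iqsec1 activates Arf6, a small GTPase of membrane traffic at the cell edge. It ranged from −0.45 to 0.37 (median 0.12) in 14 pubertal HFD tumors and from −1.19 to 0.08 (median −0.39) in 14 pubertal LFD tumors. The difference of 0.59 ± 0.13 (p = 8.82e-05 by limma, n = 14 and 14) stayed close to 0.6 under the other normalisations, at 0.63 with normexp and loess and 0.59 in the deposited matrix.

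Ppp1r10, which holds protein phosphatase 1 in the nucleus, was higher by 0.67 ± 0.15. Pebp1, the Raf kinase inhibitor protein, was higher by 1.04 ± 0.24 in the 13 pubertal HFD tumors with a value, but its other probe differed by only 0.14. The remaining 4 genes of this side all encode core histones, H4c4, H4c12, H4c14 and H2ac4, and are described with their family.

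The 10 genes of smallest p on the lower side follow. Pdcd7 encodes a protein of the minor spliceosome, which removes a rare class of introns. Its log2 ratio ran from −0.39 to 0.42 (median 0.13) in pubertal HFD tumors and from −0.06 to 1.02 (median 0.62) in pubertal LFD tumors. No pubertal HFD tumor reached the pubertal LFD median, while the ranges overlapped. The difference was −0.54 ± 0.12 with p = 4.97e-05 (n = 15 and 14) by limma, and −0.82 on the shared slide.

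Wdr20, listed on the array as Wdr20a, encodes a partner of the deubiquitinating enzymes Usp12 and Usp46. Pubertal HFD tumors lay between −0.63 and 0.98 with a median of 0.57, and pubertal LFD tumors between 0.42 and 1.75 with a median of 1.08. The difference was −0.67 ± 0.15 with p = 7.49e-05 (n = 15 and 14) by limma, while the gene's other probe differed by 0.08.

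Mnat1 encodes the assembly factor of the CDK-activating kinase, which acts in transcription and in the cell cycle. It ran from −1.30 to −0.18 (median −0.40) after pubertal HFD and from −0.58 to 0.83 (median −0.05) after pubertal LFD, so the ranges overlapped between −0.58 and −0.18. Its difference was −0.56 ± 0.14. Lig3, a DNA ligase of nuclear and mitochondrial repair, differed by −0.74 ± 0.18, with an adjusted p of 0.1664 by limma. Jade1, a subunit of a histone acetyltransferase complex, differed by −0.64 ± 0.16, and its other probe by 0.12. Rbbp6, a ubiquitin ligase that binds the retinoblastoma protein, differed by −0.51 ± 0.12, with other probes up to 0.22 and a within-slide value of −0.11.

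Cetn4, a centrin of ciliated cells and centrosomes, differed by −0.55 ± 0.12. Dera, an enzyme that splits deoxyribose phosphate, differed by −0.61 ± 0.15, and by −0.24 under normexp and loess. Zfp786, a zinc finger protein, differed by −1.05 ± 0.24, and by −0.49 under that setting. The reference channel of its probe was 0.42 higher in the pubertal HFD group, which adds to a lower ratio. Krtap1-4, a keratin-associated protein of hair, differed by −0.74 ± 0.18, and by −0.12 under normexp and loess. For all 20 genes the ranges of the 2 groups overlapped.

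**Figure D1:**
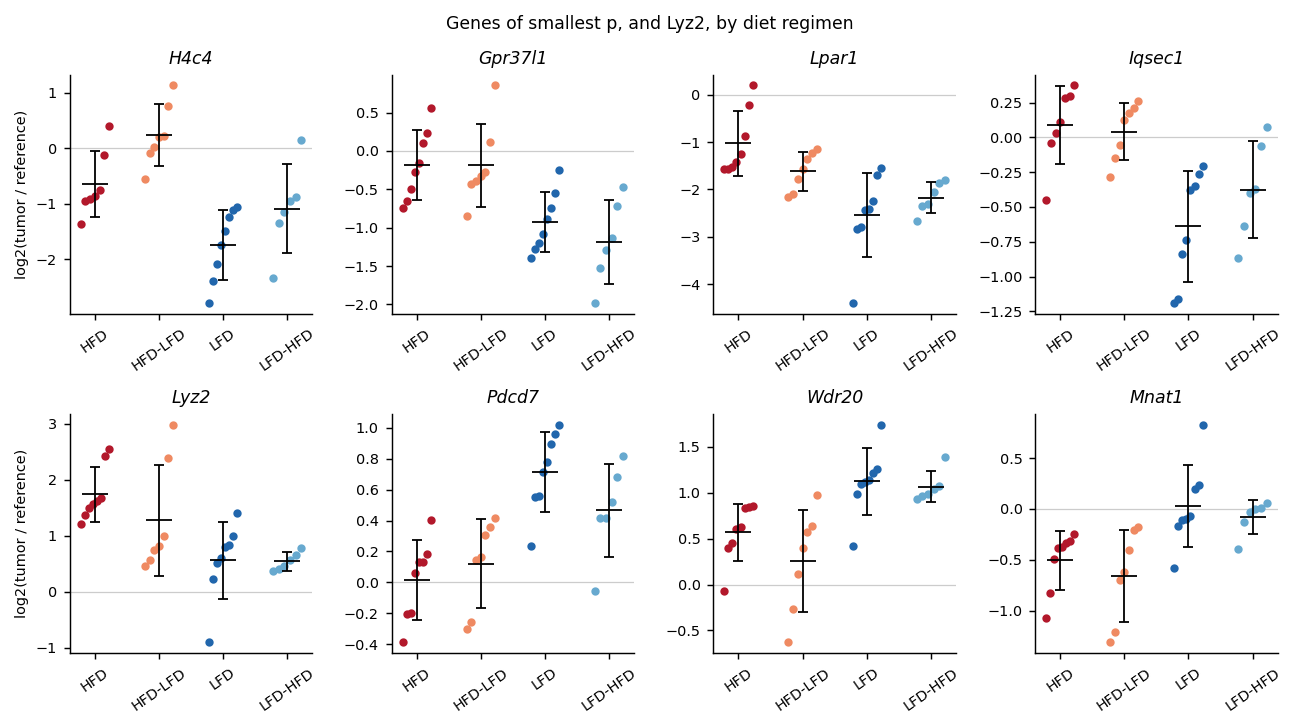
Log2 ratio of tumor over reference (y axis) in each epithelial tumor by diet regimen (x axis) for H4c4, Gpr37l1, Lpar1, Iqsec1, Lyz2, Pdcd7, Wdr20 and Mnat1, with points for tumors and bars for the mean ± SD. The first 5 genes sit higher and the last 3 lower after pubertal HFD, with overlap between the groups for every gene.

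Proteins of proliferation, vessels, macrophages and hormone response were of particular interest to the study, and their genes were read here from the same arrays. Pcna, the sliding clamp of DNA replication, ranged from −0.31 to 0.72 (median 0.18) after pubertal HFD and from −0.82 to 0.57 (median 0.20) after pubertal LFD. The difference of 0.08 ± 0.14 was smaller than its error (adjusted p = 0.9025 by limma). Pecam1, an adhesion molecule of endothelium, ranged from −1.36 to 1.01 (median −0.59) after pubertal HFD and from −1.75 to −0.66 (median −1.0) after pubertal LFD. Its difference was 0.55 ± 0.19, with p = 0.00551 (n = 15 and 14) and an adjusted p of 0.3256 by limma, and it was 0.35 without the HFD tumors 42L4B and 60L. No pubertal LFD tumor exceeded the pubertal HFD median of Pecam1.

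Adgre1, which encodes the macrophage antigen F4/80, differed by 0.01 ± 0.22. Arg1, an enzyme of alternatively activated macrophages, differed by 0.39 ± 0.50 and spread widely, from −4.82 to 0.99 after pubertal HFD and from −3.99 to 1.15 after pubertal LFD. Esr1, the estrogen receptor, ran from −1.20 to 4.90 in one group and from −3.12 to 5.09 in the other, with a difference of 0.65 ± 0.60 and a value of −0.05 for its other probe. Tumors of very low and very high Esr1 were therefore present after either pubertal diet. Krt5, a basal keratin, differed by 0.36 ± 0.56, and Krt18 by −0.34 ± 0.28. Trp53 differed by 0.70 ± 0.37, and by 0.31 ± 0.29 without 42L4B and 60L, the HFD tumors of highest value. None of these genes passed the test in limma, and Pgr, the progesterone receptor, did not pass the signal filter.

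Spats2, a gene of RNA-binding function, ranged from −0.45 to 2.12 (median 0.84) after pubertal HFD and from −0.40 to 0.79 (median 0.21) after pubertal LFD. The difference of 0.57 ± 0.18 had p = 0.00414 (n = 15 and 14) and an adjusted p of 0.301 by limma, and the reference channel of its probe moved by 0.38 in the same direction.

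Markers of macrophages leaned towards pubertal HFD. Of 12 macrophage markers tested, 11 were higher and 4 of them had an unadjusted p under 0.05, against 3.66% of all genes on that side. The median difference of the list was 0.43, against −0.04 for all genes, and none of the 12 passed the test after adjustment. In whole tumor RNA, more cells of a type and more RNA per cell cannot be told apart.

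Lyz2, lysozyme of macrophages and neutrophils, stood out in size. It ranged from 0.46 to 2.98 (median 1.5) in pubertal HFD tumors and from −0.90 to 1.41 (median 0.58) in pubertal LFD tumors. No pubertal LFD tumor reached the pubertal HFD median. The difference was 0.97 ± 0.24, or 1.96-fold, with p = 0.00031 (n = 15 and 14) and an adjusted p of 0.1483 by limma. C1qb and C1qc, chains of the complement component C1q, differed by 0.68 ± 0.23 and 0.47 ± 0.16, and Cd68, a lysosomal glycoprotein, by 0.49 ± 0.16.

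The other 8 macrophage markers had an unadjusted p above 0.05. C1qa differed by 0.44, the growth factor receptor Csf1r by 0.41, the scavenger receptor Marco by 0.52, and Mpeg1 by 0.21. Fcgr1, a receptor for antibodies, was the lower member at −0.14, while Itgam, Cd14 and Adgre1 were within 0.06 of no difference. The mean log2 ratio of the 12 markers per tumor ran from 0.56 to 2.01 (median 1.37) after pubertal HFD and from 0.21 to 1.17 (median 1.04) after pubertal LFD. Of 9 tested markers of alternatively activated macrophages 6 were higher, with a median of 0.13, and Cd163, a scavenger receptor for haemoglobin, differed by 0.53 ± 0.24.

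MHC class II proteins present antigen to helper T cells. Of 7 MHC class II genes 6 were higher, with a median difference of 0.49, and none passed the test after adjustment. H2-Ab1 differed by 0.59 ± 0.20, ranging from 1.93 to 4.39 after pubertal HFD and from 1.30 to 2.84 after pubertal LFD. H2-Eb1 differed by 0.49 ± 0.17 and Cd74, the invariant chain, by 0.59 ± 0.26. Of 12 markers of T and cytotoxic lymphocytes 9 were higher, with a median of 0.18. Their median was 0.51 among adult HFD tumors and −0.24 among adult LFD tumors. Prf1, perforin of cytotoxic cells, differed by −0.36 ± 0.15 while the reference channel of its probe was 0.73 higher. Of 20 interferon-stimulated genes 15 were lower, with a median of −0.14 and none at an unadjusted p under 0.05. Here the median was 0.14 among adult HFD tumors and −0.26 among adult LFD tumors.

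Connective tissue and vessels were described in the same way. Of 11 fibroblast and matrix genes 10 were higher, with a median of 0.43, and 2 had an unadjusted p under 0.05. These were Fap, a surface protease of activated fibroblasts, at 0.29 ± 0.12, and Thy1 at 0.43 ± 0.19. Col1a2 and Dcn differed by 0.58 and 0.61 with wide errors of 0.31 and 0.41. Of 12 endothelial markers 8 were higher, with a median of 0.12. Besides Pecam1, Eng, a coreceptor of the TGF-beta family, differed by 0.46 ± 0.16 and Kdr, the main VEGF receptor, by 0.43 ± 0.12. For Kdr the reference channel differed by 0.53 and another probe by −0.06. Of 15 angiogenic factors 10 were lower, with a median of −0.13.

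Adipocyte markers were higher in 8 of 10 cases, with a median of 0.25 and none at an unadjusted p under 0.05. Split by adult diet, their median difference was −0.17 among adult HFD tumors and 0.74 among adult LFD tumors. Skeletal muscle markers were lower in 10 of 11 cases, with a median of −0.23, and their mean log2 ratio was far below the reference in every tumor, from −5.66 to −3.74 and from −5.33 to −3.23. The part of cell composition in the differences above was not tested.

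**Figure D2:**
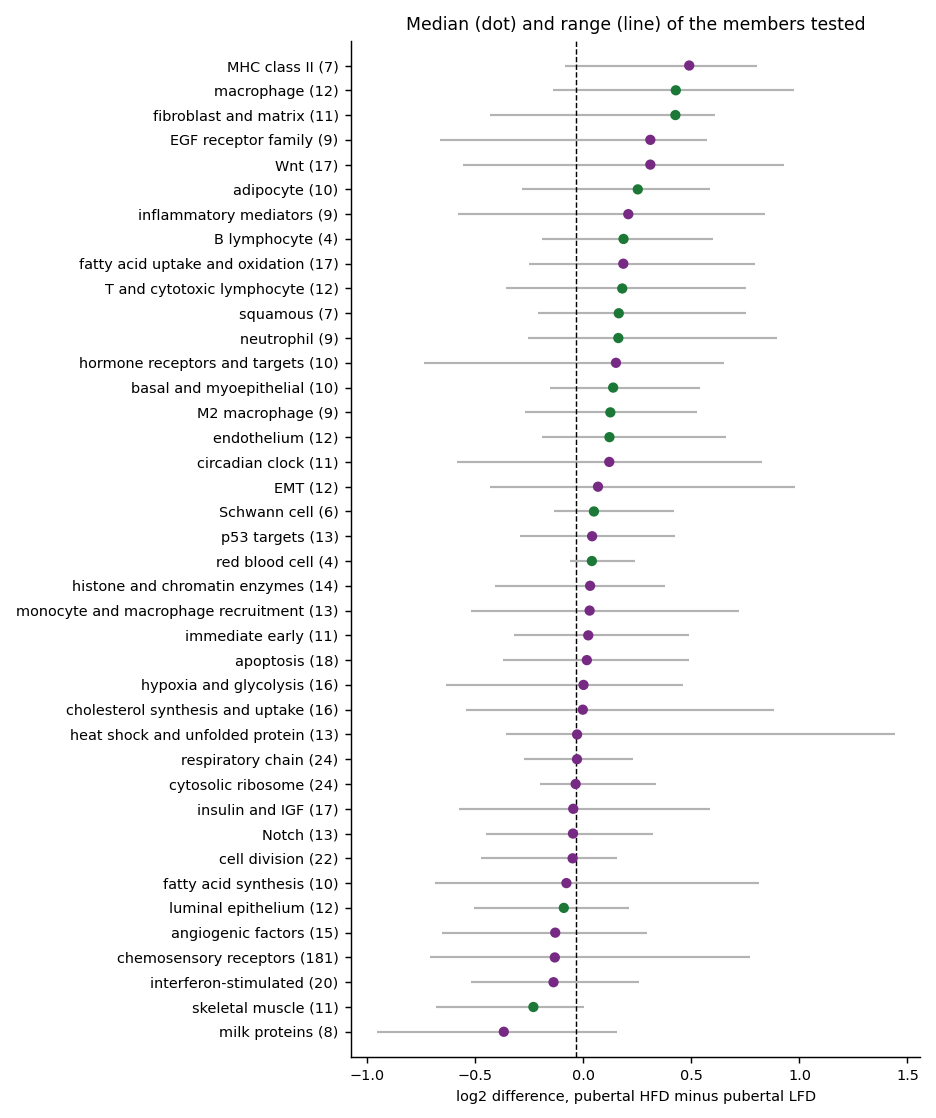
Pubertal HFD minus pubertal LFD log2 difference (x axis) of each gene list (y axis), with a dot at the median and a line from the lowest to the highest member, cell type lists in green, pathways and gene classes in purple, and a dashed line at the median of all genes. MHC class II at 0.49, macrophage at 0.43 and fibroblast and matrix at 0.43 have the highest medians, and milk proteins at −0.37 the lowest.

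Fat metabolism was examined because the diets differ in fat. Of 17 genes of fatty acid uptake and oxidation 14 were higher after pubertal HFD, with a median of 0.19. Ucp3, a mitochondrial carrier whose RNA is known to follow fatty acid supply, ranged from −0.14 to 1.30 (median 0.62) after pubertal HFD and from −1.55 to 0.74 (median −0.02) after pubertal LFD. Its difference was 0.69 ± 0.20, with p = 0.0014 (n = 15 and 14) and an adjusted p of 0.2554 by limma. Slc27a1, a fatty acid transporter, differed by 0.80 ± 0.23, and Ucp2 by 0.52 ± 0.18. The oxidation enzymes themselves differed less, with Cpt1a at 0.28, Hadhb at 0.29, Hadha at 0.19, Acadm at −0.05 and Acadl at −0.25.

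Fatty acid synthesis showed no common direction, with 5 of 10 genes higher. Scd1, which introduces the double bond of oleate, differed by 0.82 ± 0.35, whereas Acss2, which makes acetyl-CoA from acetate, differed by −0.67 ± 0.23. The cholesterol genes were split as well, 8 of 16 being higher with a median of −0.00236. Insig1, a sterol-regulated brake on the pathway, differed by 0.79 ± 0.25, and the enzymes Cyp51 and Idi1 by −0.55 and −0.39. None of these genes passed the test after adjustment.

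Growth factor pathways of the pubertal gland gave the following values. Of 17 insulin and IGF genes 7 were higher, and Igfbp6, a binding protein that prefers IGF2, differed by 0.59 ± 0.16 (p = 0.00111 by limma, n = 13 and 14) and Akt1 by 0.31 ± 0.13. Igf1 itself differed by 0.53 ± 0.41 and Igf1r by 0.22 ± 0.28. Of 17 Wnt genes 15 were higher with a median of 0.31, and none had an unadjusted p under 0.05. Egf, a ligand of the EGF receptor, differed by −0.66 ± 0.24, while 6 of 9 tested genes of its family were higher. Of 10 tested hormone receptors and targets 6 were higher, and of 8 milk protein genes 5 were lower.

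Cell division genes did not separate the groups. Of 22 tested, 15 were lower and none had an unadjusted p under 0.05, with a median of −0.05. Mki67 differed by −0.05 ± 0.16, Top2a by 0.05 ± 0.21 and Cdk1 by −0.48 ± 0.25. Of 14 chromatin enzymes 8 were higher and 6 lower, with a median of 0.03. An unadjusted p under 0.05 was found for 4 of the lower genes, against 6.19% of all genes on that side. These were Ezh2, the methyltransferase of the repressive histone mark of Polycomb, at −0.41, its partner Eed at −0.18, Bmi1 of the other Polycomb complex at −0.30, and the DNA methyltransferase Dnmt3b at −0.37.

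Since 4 of the 10 genes of smallest p on the higher side encode core histones, the whole class was described. It was chosen after those values were seen and carries no test as a class. Histones package DNA, and most of their genes lie in clusters, have no introns and are used in S phase, when new chromatin is made. Their RNA normally ends in a stem-loop without a poly(A) tail, whereas the labelling kit primes on oligo(dT). The array therefore sees mainly histone RNA that carries a tail or that is primed in another way, and the levels below should be read with that limit.

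Of 43 clustered histone genes tested, 33 were higher after pubertal HFD, with a median of 0.33. An unadjusted p under 0.05 was found for 12 on the higher side, against 3.66% of all genes, and for 0 on the lower side. The families differed in their values. The 9 H4 genes had a median of 0.69 with 8 higher, the 8 H3 genes a median of 0.45 with 8 higher, the 10 H2B genes a median of 0.37 with 9 higher, and the 4 H1 genes a median of 0.41 with 4 higher. The 12 H2A genes had a median of −0.07 with 4 higher.

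Because H4 genes encode the same protein and resemble each other in sequence, the probes are shown for the 6 H4 genes with the largest differences. Capitals mark the longest run of bases that a probe shares with another tested H4 probe. Positions are those of the array files on build NCBI37/mm9. H4c4 lies at chr13:23673515-23673574 on the plus strand, H4c12 at chr13:21842063-21842122 on the minus strand, H4c14 at chr3:96066951-96067010 on the minus strand, H4f16 at chr6:136752681-136752740 on the minus strand, H4c11 at chr13:21826989-21827048 on the plus strand and H4c3 at chr13:23790223-23790282 on the minus strand.
H4c4: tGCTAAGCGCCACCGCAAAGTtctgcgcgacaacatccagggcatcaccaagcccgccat
H4c12: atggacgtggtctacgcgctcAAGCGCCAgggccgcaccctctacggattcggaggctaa
H4c14: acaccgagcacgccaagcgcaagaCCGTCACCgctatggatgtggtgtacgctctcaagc
H4f16: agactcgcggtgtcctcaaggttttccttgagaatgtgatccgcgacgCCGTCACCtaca
H4c11: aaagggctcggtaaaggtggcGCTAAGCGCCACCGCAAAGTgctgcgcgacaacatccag
H4c3: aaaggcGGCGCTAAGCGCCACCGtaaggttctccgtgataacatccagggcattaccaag

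The H4c4 and H4c11 probes overlap by 40 bases with 95% identity, and those of H4c4 and H4c3 by 52 bases with 86.5% identity. The probes of H4c12, H4c14 and H4f16 share runs of no more than 8 bases with any other tested H4 probe. A signal on any of them can come from several H4 genes, so the assignment to single genes is uncertain. Extra probes of 2 genes pointed the same way, at 0.73 for H4c12 and 0.36 for H4c14, while an extra probe of H4f16 that did not pass the signal filter gave −0.36. The 2 extra probes of H4c9 gave 0.45 and −0.06, beside 0.36 for the probe used.

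The H4c4 probe ranged from −1.37 to 1.13 (median −0.10) in 14 pubertal HFD tumors and from −2.79 to 0.14 (median −1.30) in 14 pubertal LFD tumors. Only 1 pubertal LFD tumor, 101L4A, lay above the pubertal HFD median, and the groups overlapped. The difference was 1.26 ± 0.27, or 2.39-fold, with p = 6.84e-05 (n = 14 and 14) and an adjusted p of 0.1475 by limma, and it was 1.21 on the shared slide. H4c12 differed by 1.23 (p = 7.12e-05), H4c14 by 1.16 (p = 0.000138) and H2ac4 by 0.97 (p = 0.000141), all by limma with n = 14 and 14 and none passing the adjustment. H4c17 differed by −0.24 and H4c8 by 0.14, so the H4 genes did not all share the difference.

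The sequence upstream of the H4 genes was read from RefSeq promoters of build GRCm38.p6, in windows of 300 bases that hold 250 bases before and 50 after each gene start. H4 promoters are known for a conserved element close to the TATA box, with the letters GGTCCG. The search covered both strands. Of the 9 tested H4 genes 8 matched the promoter table, and 8 of the 8 held GGTCCG, as did 1 of 31 other clustered histone genes and 2711 of all 32851 promoters (8.25%). TATAA was found in 7 of the 8 H4 promoters, in 24 of the 31 other histone promoters and in 24.9% of all promoters. Stretches of 60 bases around the element are shown for 3 H4 genes with a large difference and for H4c17, which had none, with GGTCCG in capitals. They lie at chr13:23581494-23581553 (plus strand), chr13:21750553-21750612 (minus strand), chr6:136804431-136804490 (minus strand) and chr13:21811672-21811731 (plus strand), in the order given.
H4c4: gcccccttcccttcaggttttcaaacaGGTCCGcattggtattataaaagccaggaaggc
H4c12: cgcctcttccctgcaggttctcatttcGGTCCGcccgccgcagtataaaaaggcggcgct
H4f16: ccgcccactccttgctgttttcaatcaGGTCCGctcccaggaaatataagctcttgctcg
H4c17: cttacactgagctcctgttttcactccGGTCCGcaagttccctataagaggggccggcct

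The element is thus present alike in H4 genes that differed between the groups and in H4c17, and its presence is a description of these windows.

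The H4 genes were next read by adult diet, in 1 limma fit over the 4 regimens. Among tumors of mice on LFD as adults, H4c4 lay between −0.55 and 1.13 in the 7 HFD-LFD tumors and between −2.79 and −1.06 in the 8 LFD tumors. These ranges did not overlap. How many of all genes had ranges without overlap was not counted, and 1.23% of all genes passed the test in this contrast. H4c4 rose by 1.98 ± 0.33, with an adjusted p of 0.00874 by limma. H4c14 also rose, from a mean of −1.72 ± 0.50 (SD, n = 8) to 0.26 ± 0.64 (n = 7), by 1.98 with an adjusted p of 0.00753. H4c12 rose by 1.94 (adjusted p = 0.00874) and H4f16 by 1.61 (adjusted p = 0.00931) in the same limma fit. The extra probe of H4f16, below the signal filter, went the other way within adult LFD, at −1.05.

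With slide as a random block these 4 genes remained called, at adjusted p-values of 0.0889 for H4c4, H4c12 and H4c14 and 0.0938 for H4f16 by limma. H4c11 at 1.16, H4c3 at 0.999, H2ac4 at 1.46, H2bc18 at 1.88 and H3c13 at 1.23 also rose without the block, but their blocked adjusted p-values were 0.251, 0.345, 0.136, 0.269 and 0.236 by limma, so these 5 calls ended. No HFD-LFD tumor shared a slide with an LFD tumor, so slide and diet cannot be told apart within this contrast.

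Among tumors of mice on HFD as adults the same genes differed little. H4c4 had a mean of −0.65 ± 0.59 (SD, n = 7) in HFD tumors and −1.09 ± 0.80 (n = 6) in LFD-HFD tumors, a difference of 0.44 with an adjusted p of 0.689 by limma. The ranges, −1.37 to 0.40 and −2.34 to 0.14, overlapped widely. Of the 4 genes only H4c14 passed the direct test of whether the pubertal difference depended on the adult diet, at −1.76 with an adjusted p of 0.0684 by limma, and at 0.271 with the slide block. Cell division genes had a median difference of 0.06 within adult LFD, against 1.16 for the H4 family. The H4 family was taken up after its values in these tumors were seen. The part of cell division in the H4 difference was not tested.

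**Figure D3:**
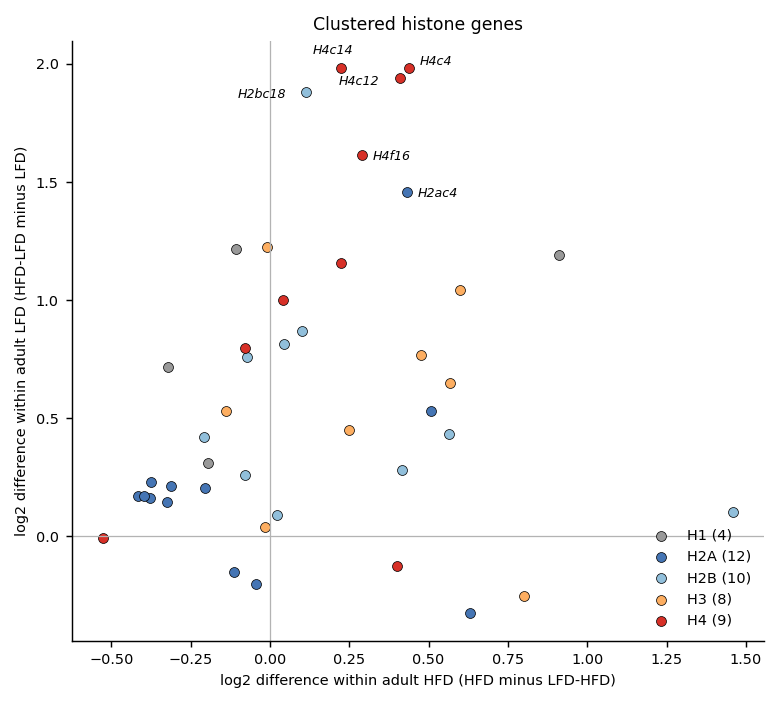
Pubertal HFD minus pubertal LFD log2 difference of each clustered histone gene among tumors of adult HFD mice (x axis) and of adult LFD mice (y axis), with 1 point per gene coloured by histone family. H4 genes reach 1.98 on the y axis, with a family median of 1.16 there and 0.23 on the x axis.

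The pubertal difference was then split by adult diet for all genes. Within adult HFD (8 HFD against 6 LFD-HFD tumors) limma called 27 genes higher (0.126%) and 17 lower (0.0794%), 0.206% of those tested. Within adult LFD (7 HFD-LFD against 8 LFD tumors) it called 78 higher (0.364%) and 185 lower (0.864%), 1.23% of those tested. Both pairs of tumors that share a number, 11L with 11R and 117L with 117R, lie in this contrast. With 1 tumor for each shared number the counts there were 22 higher and 68 lower. The excess of lower calls within adult LFD turned with the scaling of the arrays, to 99 higher and 81 lower with median centring, 264 and 162 in the deposited matrix, 135 and 117 with normexp and loess, and 3088 and 226 with the tumor channel alone. Within adult HFD the splits were 78 and 23 with normexp and loess, 29 and 8 in the matrix, and 8 and 0 with the tumor channel alone. Only 3 genes were called in both, Rmrp, Pkhd1 and the unnamed transcript TC1709970, each in opposite directions under the 2 adult diets. At an unadjusted p under 0.05 the counts were 2219 (10.4%) and 2881 (13.5%). With slide as a random block limma called 0 genes within adult HFD, where 1690 had an unadjusted p under 0.05, and 8 (0.0374%) within adult LFD. The calls within adult HFD also rested on single tumors, since none was made without the LFD-HFD tumors 71L, 82L or 92R, each left out in turn. Within adult LFD the counts ran from 21 higher and 44 lower without 108R to 160 higher and 397 lower without 11L.

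Several genes of broad function were called within adult HFD. Usf1, a transcription factor of glucose- and lipid-responsive genes, rose by 2.78 (adjusted p = 0.0402 by limma), with HFD tumors from 0.30 to 4.07 and LFD-HFD tumors from −2.51 to −0.22. Those ranges did not overlap, though the share of all genes without overlap was not counted. The share of genes called was 0.206%. Dedd, a protein with a death effector domain, rose by 2.36, and Cdk6, a kinase of the G1 phase that partners with D cyclins, by 3.03 (adjusted p = 0.0717 by limma). The Cdk6 probe was well above background in 10 of 15 and 8 of 14 tumors only. Hnrnpl, a regulator of splicing, rose by 1.77, and Pdia4, an oxidoreductase that folds proteins in the endoplasmic reticulum, by 2.76. Cps1, an enzyme of the urea cycle, fell by 1.54 from a level already far below the reference. Every one of these calls ended with the slide block. Without the HFD tumors 42L4B and 60L, 14 of the 44 genes called within adult HFD stayed called. The highest Pdia4 value among HFD tumors, 4.07, belonged to 42L4B, and the next was 2.07.

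Within adult LFD the called genes other than histones included Camp, Ccl8 and Lif, which are named as single genes. Camp, the antimicrobial peptide cathelicidin of neutrophils, rose by 1.59 (adjusted p = 0.0253 by limma), and Ccl8, a chemokine for monocytes, by 1.09 (adjusted p = 0.0178 by limma). Ccl8 ranged from 6.25 to 8.11 in HFD-LFD tumors and from 5.35 to 6.28 in LFD tumors, with the highest value in 108R. Lif, a cytokine of the interleukin 6 family, fell by 1.58 (adjusted p = 0.0886 by limma). With the slide block these 3 calls ended. The monocyte and macrophage recruitment list, which holds Ccl8, had a median difference of −0.19 within adult LFD. The neutrophil list, which holds Camp, had a median of 0.14, against −0.06 for all genes.

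Besides the 4 H4 genes, 4 genes stayed called within adult LFD with the slide block. Rgs7, a brake on G protein signalling, rose by 2.12, with HFD-LFD tumors from −1.58 to −0.09 and LFD tumors from −3.67 to −1.98. Etnppl, which breaks down phosphoethanolamine, rose by 2.62, although its probe was well above background in 6 of 15 and 2 of 14 tumors only. Csprs rose by 1.22 while the reference channel of its probe differed by −1.73, and the olfactory receptor gene Olfr1500 fell by 1.28 while the reference channel differed by 1.35. For the last 2 genes the change in the reference channel, which holds the same RNA on every array, was at least as large as the change in the ratio.

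Whether the pubertal difference itself depended on the adult diet was tested by the interaction of both diets. This contrast is the same as constant regimens (HFD and LFD) minus switched regimens (HFD-LFD and LFD-HFD), so a gene that follows the switch appears here too. Limma called 146 genes higher (0.682%) and 136 lower (0.635%), 1.32% of the genes tested, and 3055 genes (14.3%) had an unadjusted p under 0.05. The balance of higher and lower interaction calls also turned, to 91 and 162 with median centring, 170 and 367 in the deposited matrix, and 310 and 2354 with the tumor channel alone. In 278 of the 282 the pubertal difference had opposite signs under the 2 adult diets. With slide as a random block 5 genes (0.0234%) remained. They were Rmrp, Tat, Pkhd1 and the unnamed transcripts NAP111319-1 and TC1709970, whose interactions were 2.55 and 2.44 in that fit. The counts without the slide block ran from 49 higher without 71L and 50 lower without 92R to 286 higher and 257 lower without 13L.

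Rmrp, the RNA of the ribonuclease MRP that processes ribosomal RNA, was 1 of these. Its mean was 0.95 ± 0.38 (SD, n = 8) in HFD and 0.95 ± 0.30 (n = 8) in LFD tumors, and 1.94 ± 0.44 (n = 7) in HFD-LFD and 1.86 ± 0.32 (n = 6) in LFD-HFD tumors. Tumors of switched mice were thus higher by a similar amount after either pubertal diet, and the pooled pubertal difference was 0.07. The interaction was −1.90 ± 0.28, with an adjusted p of 0.0032 by limma and 0.0297 with the slide block. The reference channel of the Rmrp probe differed by 0.72 within adult HFD and 0.09 within adult LFD.

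Tat, an enzyme of tyrosine breakdown, had means of −4.43 in HFD, −4.54 in LFD, −3.60 in HFD-LFD and −3.68 in LFD-HFD tumors. Its interaction was −1.69 (adjusted p = 0.00841 by limma, 0.0504 with the block). Pkhd1, the fibrocystin of cilia and ducts, had means of −0.83, −0.60, 0.08 and −0.08 in the same order, and an interaction of −1.43 (adjusted p = 0.00841 by limma, 0.0675 with the block). All 3 genes were higher in both switched regimens than in both constant regimens.

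Other genes called for the interaction had unequal patterns. Usf1 had means of 1.44 in HFD, −0.14 in HFD-LFD, −0.07 in LFD and −1.34 in LFD-HFD tumors, with an interaction of 2.84 (adjusted p = 0.0794 by limma). Cdk6 followed a like order, at 2.14, −0.11, 0.45 and −0.89, with an interaction of 3.60 (adjusted p = 0.0774 by limma). Lair1, an inhibitory receptor of immune cells that binds collagen, had means of 4.10, 3.11, 3.80 and 2.44 and an interaction of 2.35 (adjusted p = 0.0266 by limma), while its reference channel differed by −1.30 within adult HFD. Further calls were Dedd at 2.46, Hnrnpl at 1.63, Cps1 at −2.30, Ccl8 at −1.12, Rgs7 at −1.89, Etnppl at −3.74, Csprs at −1.38 and Olfr1500 at 1.5. Of these genes none remained called with the slide block.

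**Figure D4:**
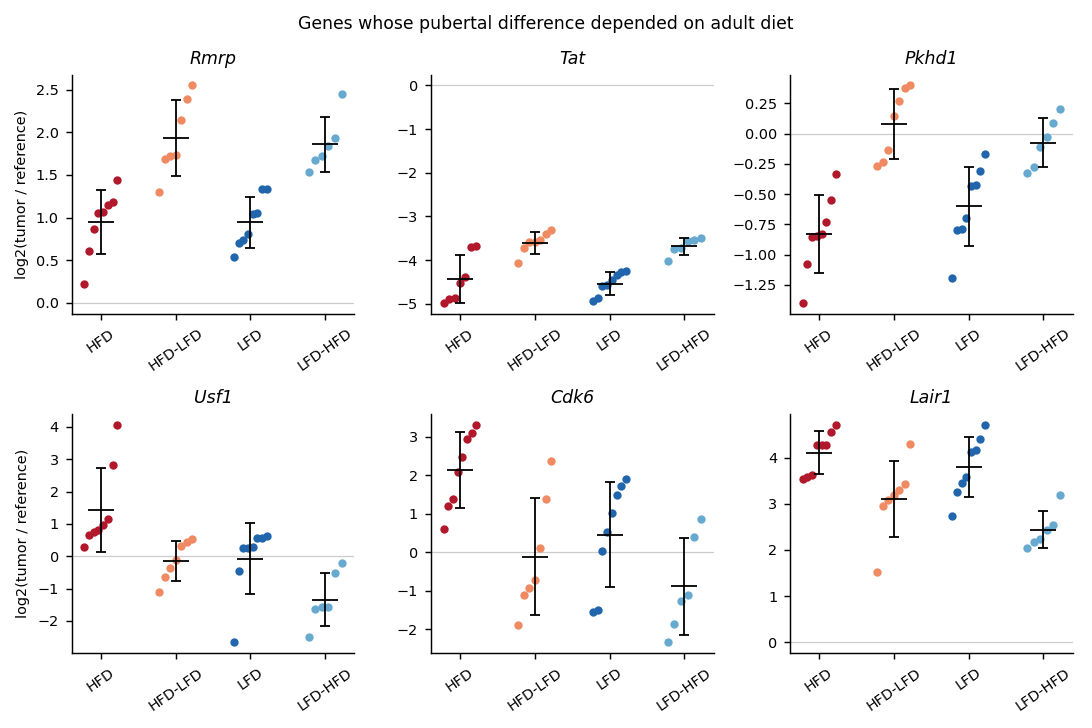
Log2 ratio of tumor over reference (y axis) in each epithelial tumor by diet regimen (x axis) for Rmrp, Tat, Pkhd1, Usf1, Cdk6 and Lair1, with points for tumors and bars for the mean ± SD. Rmrp, Tat and Pkhd1 are higher in both switched regimens, whereas Usf1 and Cdk6 are highest in HFD tumors, at means of 1.44 and 2.14.

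The reference channel offers a partial control, since it holds the same RNA on every array. Both channels had been dye-normalised within the array, so the reference signal is not fully independent of the tumor signal. The reference signal alone differed between the pubertal groups in 24 genes, all higher (0.112%), and in 0 lower, by limma, with 2017 genes at an unadjusted p under 0.05. With the slide block limma called 0 genes, and 498 had an unadjusted p under 0.05. A larger difference in the reference channel than in the tumor channel was seen for 36.6% of all genes and for 24.7% of the 2109 genes with an unadjusted p under 0.05. For the interaction with adult diet, computed in each channel on its own, the reference channel differed more than the tumor channel for 31.6% of the 282 called genes and for 43.7% of all genes. Of 181 chemosensory receptor genes tested, which are rarely used outside sensory tissue, 134 were lower after pubertal HFD with a median of −0.13, and their reference channel had a median difference of 0.40 against 0.07 for all genes. The part of the reference signal in the differences above was not tested.

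Histology was tied to the scan session, so histology and session cannot be told apart where epithelial and spindle cell tumors are compared. The 12 spindle cell tumors, 6 from each pubertal diet, were separate tumors on the same kind of array. The titles of 1 of them, M56LA, and of the epithelial tumor 56R share a number, so these may come from 1 host. Limma called 0 genes between pubertal HFD and pubertal LFD there, with 2036 (9.51%) at an unadjusted p under 0.05. Of the 2109 genes listed in epithelial tumors, 902 (42.8%) differed in the same direction in spindle cell tumors, against 45.8% of all genes. Gpr37l1 differed by −0.35 and Lpar1 by −0.08 in spindle cell tumors, where H4c4 differed by 0.26 and Lyz2 by 0.33.

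A direct test of whether the pubertal difference depended on histology called 61 genes higher and 31 lower in epithelial tumors than in spindle cell tumors (limma, 0.285% and 0.145%), and 26 and 8 with slide as a random block. Among the genes described above it called 4. Fap differed by 0.29 in epithelial and −1.42 in spindle cell tumors (adjusted p of the difference 0.0452 by limma, 0.0748 with the block). Mnat1 differed by −0.56 in epithelial and 0.53 in spindle cell tumors (0.0452 by limma, 0.0748 with the block), Jade1 by −0.64 and 0.61 (0.0712 by limma, 0.108 with the block), and Cetn4 by −0.55 and 0.41 (0.0939 by limma, 0.162 with the block). The calls of Jade1 and Cetn4 thus ended with the block.

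**Figure D5:**
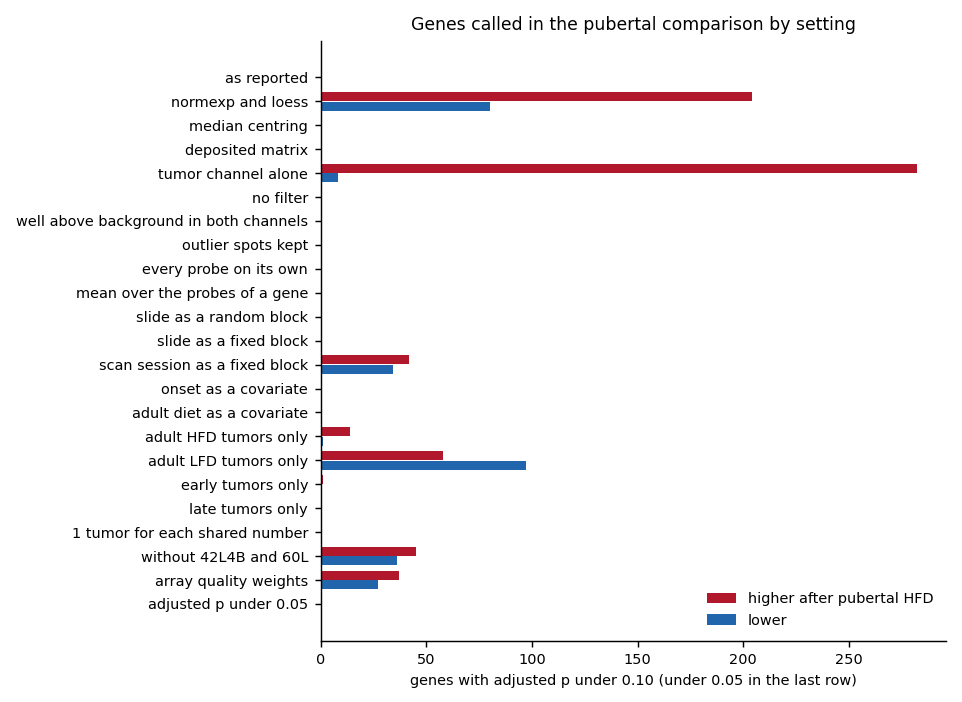
Number of genes called between pubertal HFD and pubertal LFD epithelial tumors at an adjusted p under 0.10 (bars) under each processing or design setting. The counts are 0 in the comparison as reported and with slide as a block, and reach 282 higher with the tumor channel alone and 97 lower in adult LFD tumors only.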

How the data were processed

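Total RNA of 29 epithelial tumors was profiled on 2-colour Agilent arrays. Per the file headers, the deposited intensity of each channel (processed signal) had been background-subtracted with spatial detrending and dye-normalised within the array by Feature Extraction 11.0.1.1 (10.5.1.1 for the spindle cell arrays), whereas the labels name version 8.5.1.1. The authors also deposited a matrix of log2 ratios, for which they kept spots over an intensity of 10 in at least 80% of samples, applied Lowess and imputed missing values from nearest neighbours. Set against the scanner files, its columns had a median slope of 0.89 and column medians between −0.039 and 0.032, so it holds centred log2 ratios of Cy5 over Cy3. In 3 columns, all of HFD tumors, the best match was another tumor's scanner file, and the matrix served only as an alternative. No column of sample values was left out.

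Log2 ratios of Cy5 over Cy3 were computed here from the processed signals. Control spots were dropped and outlier spots set to missing (1.63% of gene values), so n varies by gene. Spots of a probe were averaged, probes with both signals over 10 on at least 80% of the arrays were kept (27963 of 39429), and the brightest probe stood for its gene, giving 21405 of 30119 genes. Names were updated through the RefSeq gene table by accession (15948 genes), symbol (1123) or older symbol (182), and 4152 kept the name in the file. Groups were compared with limma 3.58.1 in R 4.3.3 (lmFit, eBayes, Benjamini-Hochberg over all genes, adjusted p under 0.10), pooling HFD with HFD-LFD and LFD with LFD-HFD as the study did. limma replaced SAM, the study's test, which was not run. The adult diet splits and the interaction came from 1 fit over 4 regimen means. Slide entered as a random block (duplicateCorrelation, statmod 1.5.0), with a correlation of 0.12 in the pubertal fit and 0.11 in the fit over 4 regimens. Tumors are separate samples, so p-values measure the spread between tumors. Precision is set by how many arrays each group holds. The scripts were tested on simulated data.

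The genes named are the 10 of smallest p in each direction, the targets the study stained or chose, genes called with the slide block, called genes of the adult diet contrasts, and members of the lists. The tumors, lists and alternatives were chosen with earlier results of these data known. The histone class was added after its values were seen. Some members of the cholesterol list are not reported here by name.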

Additional observations from a re-analysis of the deposited data

Results flagged for a closer look

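Within each of the 4 regimens, the highest or lowest tumor stood apart from the others, by Dixon's test for a single extreme value, in 30 of 252 groups over 63 genes and transcripts named in the report. Chance alone sets off about 5% of groups, or 1 in 20. The LFD tumor 13L was involved most often. Its log2 ratios were low for Trp53 (−2.25), H1f2 (−6.05), Usf1 (−2.66), Slc27a1 (−2.35), Ucp3 (−1.55), Scd1 (−2.84) and H2-Ab1 (1.30), and high for Dera (−0.0159) and Lig3 (2.48). Other LFD tumors standing apart were 31R for Lpar1 (−4.40), Ppp1r10 (−1.52) and Csprs (4.88), and 17R for Arg1 (1.15). Among LFD-HFD tumors these were 90R for Wdr20 (1.39), 71L for Cetn4 (2.48), 82L for Esr1 (−2.60), Olfr1500 (1.92) and Lif (4.29), and 101L4A for H4c3 (1.05) and H3c13 (0.38). Among HFD-LFD tumors, 117L stood apart for Lhfpl3 (0.85) and 108R for Zfp786 (−1.51), Cd68 (2.26), Pdia4 (1.53), Ccl8 (8.11), NAP111319-1 (−2.24) and TC1709970 (−1.63). Among HFD tumors, 60L stood apart for H3c13 (−2.03), 62L for Cd68 (2.06) and 42L4B for Pdia4 (4.07).

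In array quality, 22% of the spots were outliers on the array of 60L and 8.04% on that of 122Rb, an HFD-LFD tumor, and the median log2 ratio of 60L was 0.468. The pubertal difference depended on adult diet for 282 genes and on histology for 92 genes by the interaction test in limma. Among named genes, the interaction with adult diet was 3.60 for Cdk6, 2.84 for Usf1, 2.59 for NAP111319-1, 2.55 for TC1709970, 2.46 for Dedd, 2.35 for Lair1, 1.63 for Hnrnpl, 1.5 for Olfr1500, −1.12 for Ccl8, −1.38 for Csprs, −1.43 for Pkhd1, −1.69 for Tat, −1.76 for H4c14, −1.89 for Rgs7, −1.90 for Rmrp, −2.30 for Cps1 and −3.74 for Etnppl. The interaction with histology was 1.71 for Fap, −0.958 for Cetn4, −1.09 for Mnat1 and −1.25 for Jade1. Leaving out 13L raised the interaction counts from 146 to 286 higher and from 136 to 257 lower.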

How the results depend on the processing

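Counts are genes higher, then lower, at an adjusted p under 0.10 by limma. Between pubertal HFD and pubertal LFD tumors the 0 and 0 of the report became 204 and 80 with normexp and loess, 282 and 8 with the tumor channel alone, 42 and 34 with scan session as a block, 45 and 36 without 42L4B and 60L, 37 and 27 with array weights, 14 and 1 in adult HFD tumors only, 58 and 97 in adult LFD tumors only, and 1 and 0 in early tumors only. Leaving out 1 tumor gave 0 to 36 and 0 to 14, with counts above 0 without 101L4A, 109L, 11L, 66L (6 and 0), 31R (3 and 0) or 13L (0 and 1). The count stayed at 0 and 0 under the other settings, among them median centring, the deposited matrix, no filter, outlier spots kept, other probe rules, slide as a random or fixed block, onset or adult diet as a covariate, late tumors only and 1 tumor for each shared number. The fixed slide block compares the pubertal diets only on the 1 slide that held both. For the interaction (146 and 136) the counts were 80 and 51 with normexp and loess, 2 and 3 with the slide block, 40 and 41 at an adjusted p under 0.05, 310 and 2354 with the tumor channel alone, 85 and 61 with 1 tumor for each shared number, 395 and 376 with array weights, 91 and 162 with median centring and 170 and 367 in the deposited matrix, and leaving out 1 tumor gave 49 to 286 and 50 to 257. Within adult LFD (78 and 185) they were 135 and 117 with normexp and loess, 7 and 1 with the slide block, 28 and 57 at 0.05, 22 and 68 with 1 tumor for each shared number, 215 and 556 without 42L4B and 60L, 264 and 162 in the matrix, 3088 and 226 with the tumor channel alone and 99 and 81 with median centring, and leaving out 1 tumor gave 21 to 160 and 44 to 397. Within adult HFD (27 and 17) they were 78 and 23 with normexp and loess, 0 and 0 with the slide block, 11 and 3 at 0.05, 8 and 0 with the tumor channel alone, 15 and 7 without 42L4B and 60L, 138 and 96 with array weights and 29 and 8 in the matrix, and leaving out 1 tumor gave 0 to 62 and 0 to 60. For the reference channel (24 and 0) they were 816 and 121 with normexp, 125 and 8 for probes well above background in both channels, 0 higher with the slide block and 0 higher at 0.05. For histology (61 and 31) they were 2101 and 345 with normexp and loess, 26 and 8 with the slide block, and 22 and 4 at 0.05. The causes of these shifts were not tested. The balance of higher against lower calls turned within adult LFD and for the interaction under several of these settings. None of the 20 genes of smallest p changed the sign of its difference under the alternatives run for it. These genes were chosen by p in the same tumors, and 29 of the alternatives leave out only 1 tumor. Stable signs therefore add no separate evidence. The H4c4, H4c12, H4c14 and H4f16 calls within adult LFD passed in all 40 alternatives, with differences of 1.73 to 2.18, 1.72 to 2.12, 1.75 to 2.16 and 1.48 to 1.93. Of these alternatives 29 leave out 1 tumor, and leaving out an adult HFD tumor does not change the tumors of this contrast.

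The alternatives for both adult diet contrasts, and for the interaction median centring, the matrix, the tumor channel, onset, shared numbers, tumors left out and array weights, were chosen after seeing the data. No paired analysis was possible because the titles hold no replicate numbers that the diets share. As few as 52.4% of an array's probes were well above background in the tumor channel, which limits low genes, and 7 of 8 slides held 1 regimen, which limits how far slide and diet can be separated.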
